A study of Mus musculus with 6 samples.

Results

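Metallothioneins Mt1 and Mt2, the metal-sensing transcription factor Mtf1 and 7 zinc or manganese transporters of the Slc30 and Slc39 families were examined in the livers of F1 male mice. The 10 genes were chosen by name, for their function, and all 10 were found among the 16727 gene identifiers used. The metallothioneins stood at 2.74 and 3.53 times their control level in males whose fathers had drunk inorganic arsenic (iAs), with no overlap between the groups, and neither passed the test over all genes. Slc39a8, a zinc and manganese importer, was lower in every one of these livers, and Slc39a5, another zinc importer, was low in both groups and lower still in the same livers. Slc39a8 did not pass the test either, and Slc39a5 lay below the minimum level for it. Of all genes tested, 11.8% were lower without overlap in the males with exposed fathers, and 2.37% were higher without overlap. The other 6 genes overlapped between the groups.

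Liver RNA was sequenced from 3 conF1-M and 3 iAsF1-M mice, wild-type C57BL/6 males on normal chow, with livers collected 7 h into refeeding. The fathers of iAsF1-M mice drank water with 250 ppb iAs, given as sodium arsenite, for 6 weeks before mating, and the fathers of conF1-M mice drank normal water. The mothers and the F1 mice of both groups had no iAs in their water, so no value here comes from a directly dosed animal after conception. The age of the mice, and the father and litter of each, are not given for these livers in the sources used here, so effects of a common father or litter cannot be told apart from those of the paternal exposure.

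Metallothioneins are small cysteine-rich proteins that bind zinc and copper and also arsenite and cadmium through their thiol groups. When free zinc in the cell increases, the zinc finger protein MTF1 enters the nucleus and binds metal response elements, short motifs with the core TGCACNC or TGCGCNC, where N is any base, before its target genes, of which Mt1, Mt2 and the zinc exporter gene Slc30a1 are the best known. Proteins of the Slc30 family (ZnT) move zinc, and SLC30A10 manganese, out of the cytosol, and those of the Slc39 family (ZIP) bring zinc, and some of them manganese and iron, into it. In liver, the metallothionein genes also respond to glucocorticoids and to IL-6 in the acute phase.

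Mt1 (ENSMUSG00000031765, chromosome 8 of GRCm38 from 94179082 to 94180327, plus strand) and Mt2 (ENSMUSG00000031762, chromosome 8 from 94172664 to 94173568, plus strand) are neighbours. The DNA before them is shown because it carries the motif that MTF1 reads. The 250 bases before the RefSeq start of each gene (assembly GRCm38.p6) follow, with each core of a metal response element in capitals on either strand. The windows are chr8:94178839-94179088 for Mt1 and chr8:94172368-94172617 for Mt2, both on the plus strand.
Mt1: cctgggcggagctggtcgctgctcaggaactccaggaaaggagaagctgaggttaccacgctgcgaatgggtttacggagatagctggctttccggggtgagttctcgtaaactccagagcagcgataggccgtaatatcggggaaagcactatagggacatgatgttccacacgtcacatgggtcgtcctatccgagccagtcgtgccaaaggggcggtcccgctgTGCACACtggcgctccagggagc
Mt2: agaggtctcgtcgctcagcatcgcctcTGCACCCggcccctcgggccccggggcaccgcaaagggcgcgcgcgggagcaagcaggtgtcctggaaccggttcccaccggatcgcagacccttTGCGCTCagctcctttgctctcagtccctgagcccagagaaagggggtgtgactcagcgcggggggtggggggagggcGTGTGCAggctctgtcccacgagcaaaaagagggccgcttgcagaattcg
The Mt1 window held 1 core and the Mt2 window 3. The search used both forms of the core on both strands and counted overlapping matches separately. Of the 32851 RefSeq windows of this length, 21.4% held at least 1 core and 1.26% at least 3.

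Both annotated starts lie before the TATAAA box of the gene, so the stretch between start and box was read from the GENCODE M21 transcripts as well. The first 150 bases of Mt1-201 held 4 cores, which begin 119, 101, 37 and 23 bases before the box. Those of Mt2-201 held 3 cores, which begin 77, 58 and 24 bases before the box. Of 58695 protein-coding transcripts, 0.388% held at least 3 cores in these bases and 0.0545% at least 4. The 30-base stretches that contain them, with cores in capitals, lie on the plus strand at chr8:94179088-94179117 and chr8:94179170-94179199 for Mt1 and at chr8:94172673-94172702 and chr8:94172726-94172755 for Mt2.
Mt1 distal pair: ctcTGCACTCcgcccgaaaagTGCGCTCgg
Mt1 proximal pair: gctGGGTGCAaacccttTGCGCCCggactc
Mt2 distal pair: ggcGTGTGCAggcggcgggggcGCGTGCAt
Mt2 proximal core: tttTGCGCTCgacccaatactctccgctat
A match is only a match of letters, and binding of MTF1 was not measured.

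RefSeq windows were found for 8 of the 10 genes, without Slc39a4 and Slc39a14. Slc30a10 held 3 cores, 2 of which overlap, and Slc30a1 held 1. Slc39a5 and Slc39a8 each have 2 annotated starts, with 1 core before one of them and none before the other. The windows of Mtf1 and Slc30a7 held none.

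FPKM, the number of fragments scaled by transcript length and by library total, is a level per length, so levels of different genes can be set side by side. The depth estimated from the steps between low values was 21300000 to 23750000 fragments per liver. All 8 hepatocyte markers were measured, with a summed level of 66711 to 72997 FPKM in conF1-M and 57850 to 74903 FPKM in iAsF1-M livers. One library, iAsF1-M 3, lay nearer to the other group than to its own. Its mean Euclidean distance of log2 values over the 9695 genes tested was 28.0 to the conF1-M group and 35.0 to its own. The distances to their own group were 32.0 for iAsF1-M 1, 33.6 for iAsF1-M 2 and 22.7 to 24.45 for the conF1-M livers. Calls that changed without iAsF1-M 3 are given both ways. In bulk liver, fewer cells of a type and less RNA per cell cannot be told apart.

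By the mean over all 6 livers, the metallothioneins were the most abundant of the 10 genes. In conF1-M livers alone Mt2 overlapped with Slc39a14, with means of 29.1 and 29.3 FPKM. Among the genes tested of the 10, the metallothioneins differed most between the groups. Mt1 stood at 102.92, 80.33 and 125.13 FPKM in the conF1-M livers and at 362.68, 290.92 and 192.74 FPKM in the iAsF1-M livers. The lowest iAsF1-M liver, iAsF1-M 3, was above the highest conF1-M liver. Mt2 stood at 28.69, 21.01 and 37.58 FPKM in conF1-M and at 145.07, 99.73 and 63.46 FPKM in iAsF1-M livers, again without overlap and in the same order of livers as Mt1. The group means were 103 ± 22.4 and 282 ± 85.3 FPKM for Mt1 and 29.1 ± 8.29 and 103 ± 40.9 FPKM for Mt2 (SD, n = 3 per group).

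On the scale of log2(FPKM + 1), the log2 fold change of iAsF1-M over conF1-M was 1.42 for Mt1 (standard error 0.25, 95% interval 0.85 to 2.00) and 1.74 for Mt2 (standard error 0.31, 95% interval 1.03 to 2.46). The unadjusted p values from limma were 0.000485 and 0.000538, and the adjusted p values over all 9695 genes were 0.314 and 0.326. Neither gene passed the threshold of 0.05, which 6 genes (0.0619% of those tested) did. A difference in the same direction with an unadjusted p under 0.05 was found for 138 genes (1.42%), and a complete separation of the livers with iAsF1-M higher for 230 genes (2.37%).
Without iAsF1-M 3, whose level was nearest to conF1-M, both genes passed, at 1.67 for Mt1 (adjusted p = 0.0158 from limma) and 2.05 for Mt2 (adjusted p = 0.0177 from limma), among 73 genes that did. With any other liver left out neither passed.

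**Figure D1:**
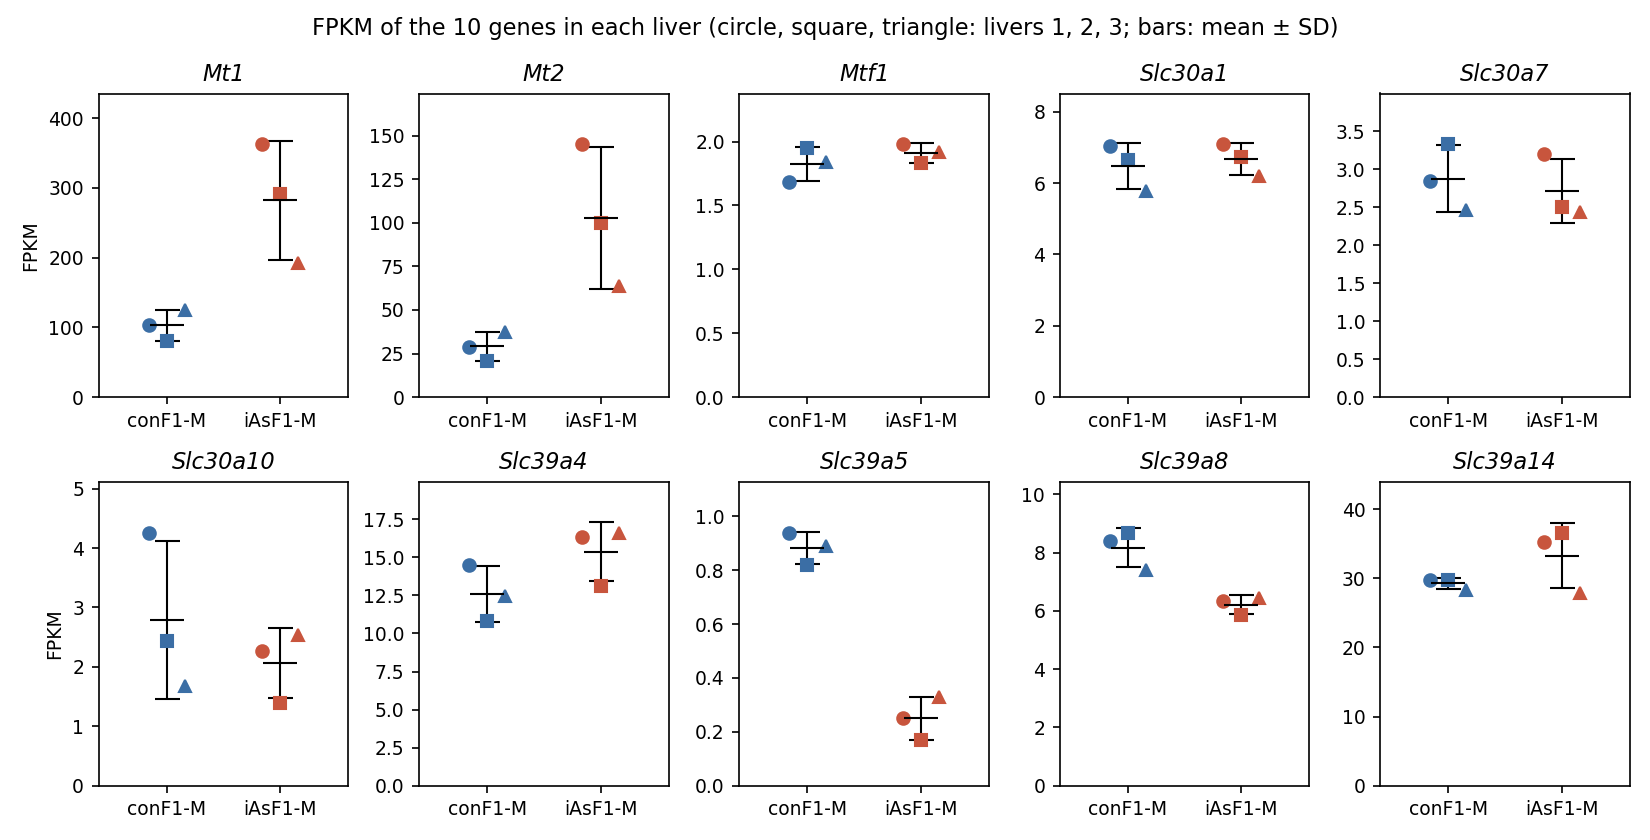
FPKM of each of the 10 genes in each liver, with 1 panel per gene and its own vertical axis from 0. Symbols are single livers and bars give the mean and SD of 3 livers. Mt1 and Mt2 lie higher and Slc39a5 and Slc39a8 lower in all 3 iAsF1-M livers, and the other 6 genes overlap.

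Mt1 and Mt2 followed each other from liver to liver. Pearson's r between their log2 values was 0.999 over 6 livers and 0.995 after each group's mean was removed, a description of 2 genes measured in the same libraries. Summed, the pair reached 132 ± 30.7 FPKM in conF1-M livers and 385 ± 126 FPKM in iAsF1-M livers (SD, n = 3 each). The proportions of the pair differed as well. Mt1 was 3.59, 3.82 and 3.33 times Mt2 in the conF1-M livers and 2.5, 2.92 and 3.04 times in the iAsF1-M livers. Mt2 thus made up 21.9 ± 1.18% of the sum in conF1-M and 26.3 ± 2.01% in iAsF1-M livers (SD, n = 3 each), without overlap, and the share was highest in iAsF1-M 1, where the sum was highest. The longest run of bases that the Mt1-201 and Mt2-201 transcripts share is 20, and how the authors' program treated fragments that match both is not given in the sources used here. An antisense gene, Gm45774, covers 432 exon bases of Mt2 and was not analysed here, and because the library kit does not mark strand its fragments could not be told apart from those of Mt2.

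Mtf1, the sensor itself, was low and even across the livers. Mtf1 (ENSMUSG00000028890, chromosome 4 from 124802104 to 124849800) stood at 1.68, 1.95 and 1.84 FPKM in conF1-M and at 1.98, 1.83 and 1.92 FPKM in iAsF1-M livers. The groups overlapped, and the log2 fold change was 0.04 (standard error 0.08, 95% interval -0.15 to 0.24, adjusted p = 0.876 from limma). It shares 721 exon bases with 1110065P20Rik on the other strand, whose own level was 3.91 to 7.34 FPKM.

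Slc30a1 encodes ZnT1, the zinc exporter of the plasma membrane and a target of MTF1. Slc30a1 (ENSMUSG00000037434, chromosome 1 from 191906767 to 191913247) stood at 7.04, 6.64 and 5.77 FPKM in conF1-M and at 7.09, 6.73 and 6.21 FPKM in iAsF1-M livers. The values of the groups interleaved, and the 95% interval of the log2 fold change of 0.04 ran from -0.19 to 0.26 (adjusted p = 0.902 from limma). This interval had an upper end below the lower ends, 0.85 and 1.03, of the Mt1 and Mt2 intervals. The difference between these genes was not tested.
Of the list of MTF1 and 8 of its known targets, Mt1 and Mt2 were thus the only genes higher at an unadjusted p under 0.05. At that level 1.42% of all genes were higher and 6.75% lower. Ndrg1, a stress-induced gene, was lower at that level (log2 fold change -0.30, unadjusted p = 0.0369, adjusted p = 0.593 from limma), at 3.55, 3.23 and 2.80 FPKM in conF1-M and at 1.97, 2.83 and 2.42 FPKM in iAsF1-M livers. The 8 tested genes of the list had a median log2 fold change of -0.05, beside -0.07 for all genes. Gclc, the catalytic subunit of the enzyme that starts glutathione synthesis, had -0.53 (adjusted p = 0.616 from limma) with overlap. Slc39a10, a zinc importer that MTF1 represses, was too low for the test, at 0.46, 0.53 and 0.42 FPKM in conF1-M and at 0.36, 0.34 and 0.38 FPKM in iAsF1-M livers. Of these targets, Ndrg1, Gclc and Slc39a10 were singled out after their values were seen.

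The other exporters among the 10 genes were Slc30a7 and Slc30a10. Slc30a7 (ENSMUSG00000054414, chromosome 3 from 115938973 to 116007406), whose product ZnT7 carries zinc into the Golgi for enzymes of the secretory pathway, stood at 2.84, 3.33 and 2.46 FPKM in conF1-M and at 3.20, 2.5 and 2.44 FPKM in iAsF1-M livers (log2 fold change -0.06, 95% interval -0.34 to 0.22, adjusted p = 0.879 from limma). Slc30a10 (ENSMUSG00000026614, chromosome 1 from 185454848 to 185468762), which exports manganese from hepatocytes into bile, was the most variable of the tested transporters within a group. It stood at 4.26, 2.44 and 1.67 FPKM in conF1-M and at 2.26, 1.40 and 2.53 FPKM in iAsF1-M livers, and the highest value was that of conF1-M 1. Its log2 fold change was -0.27 (standard error 0.25, 95% interval -0.85 to 0.31, adjusted p = 0.748 from limma), a wide interval.
Traces of gut and pancreas transcripts were found in conF1-M 1. The alkaline phosphatase gene Alpi was at 1.15 FPKM, the sucrase gene Sis at 0.44, the lipase gene Pnlip at 0.14, the lactase gene Lct at 0.06, the trypsin gene Prss2 at 0.05 and the carboxypeptidase gene Cpa1 at 0.03 FPKM, and each was listed at 0 in the other 5 livers. Ctrb1, chymotrypsinogen, was at 0.20 FPKM in conF1-M 1, at 0.05 FPKM in conF1-M 3 and at 0 in the rest, and Vil1, villin, was at 0.23, 0.05 and 0.08 FPKM in conF1-M and at 0, 0.03 and 0.01 FPKM in iAsF1-M livers. The other measured pancreas and intestine markers were not highest in conF1-M 1. Cela2a was at 0.28, 0.14 and 0.40 FPKM in conF1-M and at 0.61, 0.24 and 0.15 FPKM in iAsF1-M livers. Cela1 was highest in conF1-M 3, at 9.15 FPKM, and Fabp2 in iAsF1-M 3, at 132.38 FPKM. The genes named as traces were singled out after their values were seen. Slc30a10, Slc39a4 and Slc39a5 are expressed in gut or pancreas too. The part of these traces in their levels in conF1-M 1 was not tested. The log2 fold change of Slc30a10 was -0.0038 without conF1-M 1, -0.10 without iAsF1-M 2 and -0.49 without conF1-M 3. Genes on the other strand that were not analysed here share exon bases with Slc30a1 (468), Slc30a10 (533) and Slc30a7 (637 and 1165, with 2 pseudogenes), and fragments of either strand could not be told apart.

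Slc39a8 encodes ZIP8, which takes zinc, manganese and cadmium into cells and in mouse liver recovers manganese from bile. Slc39a8 (ENSMUSG00000053897, chromosome 3 from 135825279 to 135888572) stood at 8.41, 8.69 and 7.41 FPKM in conF1-M and at 6.35, 5.86 and 6.45 FPKM in iAsF1-M livers. All iAsF1-M livers, iAsF1-M 3 included, lay below all conF1-M livers. The log2 fold change was -0.34 (standard error 0.09, 95% interval -0.55 to -0.14, unadjusted p = 0.0054, adjusted p = 0.564 from limma), so it did not pass over all genes. Lower levels of this kind were common: 654 genes (6.75%) had an unadjusted p under 0.05 with iAsF1-M lower, and 1143 (11.8%) were separated in that direction. Under quantile normalization and TMM-like scaling, which move the median of all genes from -0.07 to -0.0044 and -0.0035, the fold change remained negative, at -0.29 with the first and -0.28 with the second.
Markers of sinusoidal endothelial cells were lower too. All 8 were measured, their summed level was 66.3 to 85.7 FPKM in conF1-M and 49.7 to 58.6 FPKM in iAsF1-M livers, and 5 of the 8 were lower at an unadjusted p under 0.05, with a median log2 fold change of -0.38 for the list. None was at 0, and their part in the level of Slc39a8 was not tested.

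Slc39a14 and Slc39a4 had fold changes above 0 with overlap between the groups. Slc39a14 (ENSMUSG00000022094, chromosome 14 from 70303469 to 70351425) encodes ZIP14, an importer of zinc, iron and manganese that IL-6 induces in mouse liver, and it was the most abundant transporter of the 10 genes. It stood at 29.71, 29.81 and 28.35 FPKM in conF1-M and at 35.26, 36.62 and 27.91 FPKM in iAsF1-M livers. The conF1-M livers lay close together while iAsF1-M 3 was lowest of all 6, and the log2 fold change was 0.17 (standard error 0.11, 95% interval -0.10 to 0.43, adjusted p = 0.662 from limma). Leaving out iAsF1-M 3 gave 0.29 (adjusted p = 0.173 from limma), and leaving out iAsF1-M 2 gave 0.096 (adjusted p = 0.854 from limma).
Slc39a4 (ENSMUSG00000063354, chromosome 15 from 76612383 to 76617384) encodes ZIP4, the main zinc importer of the gut, which is mutated in the human zinc deficiency acrodermatitis enteropathica. It stood at 14.51, 10.81 and 12.47 FPKM in conF1-M and at 16.37, 13.15 and 16.63 FPKM in iAsF1-M livers, with iAsF1-M 2 within the conF1-M range (log2 fold change 0.27, standard error 0.13, 95% interval -0.04 to 0.58, adjusted p = 0.616 from limma).

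Slc39a5, whose product ZIP5 takes zinc up on the blood-facing side of mouse enterocytes and pancreatic acinar cells, lay below the minimum mean of 1 FPKM and had no test in the fit of all genes. Slc39a5 (ENSMUSG00000039878, chromosome 10 from 128395931 to 128401229, minus strand) stood at 0.94, 0.82 and 0.89 FPKM in conF1-M and at 0.25, 0.17 and 0.33 FPKM in iAsF1-M livers. The lowest conF1-M value, 0.82 FPKM, was well above the highest iAsF1-M value, 0.33 FPKM. The group means were 0.883 ± 0.060 and 0.250 ± 0.080 FPKM (SD, n = 3), so the conF1-M level was 3.53 times that of iAsF1-M. At the estimated depths these levels stand for about 48, 41 and 42 fragments in conF1-M and 13, 9 and 16 in iAsF1-M livers.
With the minimum mean lowered to 0.1 FPKM, which took in 12798 genes, the log2 fold change of Slc39a5 was -0.59 (standard error 0.07, 95% interval -0.76 to -0.42, unadjusted p = 5.6e-05, adjusted p = 0.0893 from limma). Slc39a5 was thus not among the 5 genes (0.0391%) past the threshold in that fit, where 1463 genes (11.4%) were separated with iAsF1-M lower. The pseudocount shrinks such a low gene, and with a pseudocount of 0.1 the log2 fold change was -1.51 (adjusted p = 0.223 from limma). In further fits at this minimum, leaving out conF1-M 3 gave an adjusted p of 0.0310 (limma), with 162 of 12852 genes past the threshold. Leaving out iAsF1-M 3 gave 0.0410 (limma), with 40 of 12831 genes past it. Leaving out any 1 of the other livers gave 0.261 to 0.532 (limma), with 3 to 6 genes past it. These fits of Slc39a5 were chosen after its values were seen.
The gene lies wholly within Ankrd52, which runs on the other strand and shares no exon base with it. Ankrd52 was at 3.97, 4.11 and 4.0 FPKM in conF1-M and at 4.64, 4.28 and 3.56 FPKM in iAsF1-M livers, with overlap. Of the pancreas markers 6 of 8 were measured, with summed levels of 6.72 to 9.60 FPKM in conF1-M and 4.98 to 9.05 FPKM in iAsF1-M livers, nearly all of it Cela1. Of the intestine markers 5 of 8 were measured, at 98.4 to 103 FPKM and 95.8 to 132 FPKM, nearly all of it Fabp2. As given for Slc30a10, Vil1 was lower in every iAsF1-M liver and Ctrb1 was at 0 in all of them, while Cela2a overlapped between the groups. The part of gut or pancreas transcripts in the level of Slc39a5 was not tested.

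**Figure D2:**
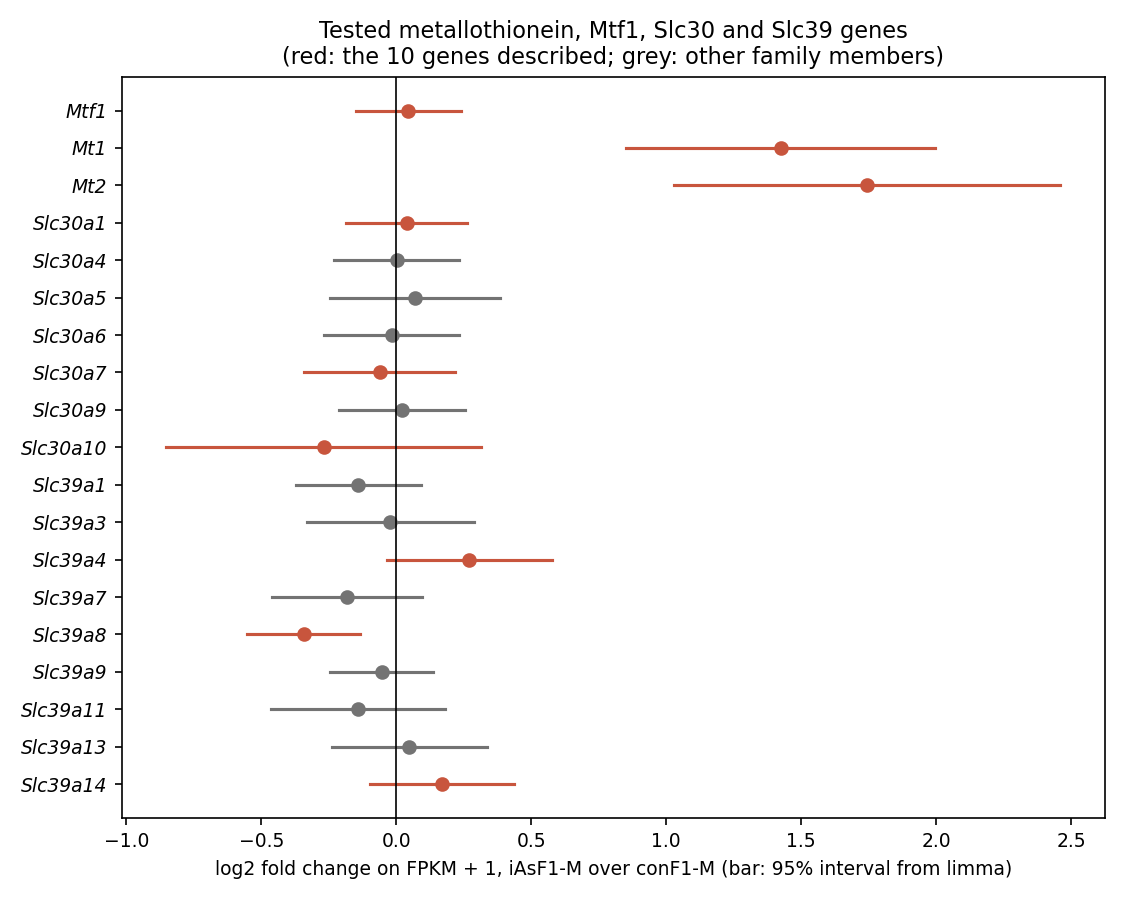
Log2 fold change on FPKM + 1 of iAsF1-M over conF1-M for Mt1, Mt2, Mtf1 and the 16 tested Slc30 and Slc39 genes, with the 95% interval from limma. The intervals of Mt1 and Mt2 lie far above 0, that of Slc39a8 lies below 0, and all others include 0.

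Read together, none of the 9 tested genes passed over all genes. At an unadjusted p under 0.05, 2 were higher and 1 was lower, beside 1.42% and 6.75% of all genes. A fold change above 0 was found for 6 of the 9, beside 2951 of all 9695 genes. The median log2 fold change of the 9 genes was 0.04, beside -0.07 for all 9695 genes. Mt1 and Mt2 lay far from the rest of the set, whose tested members ran from -0.34 to 0.27.

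All 10 Slc30 genes were measured and 7 tested, with none past an unadjusted p of 0.05 in either direction and a median log2 fold change of 0.00. All 14 Slc39 genes were measured and 9 tested, with Slc39a8 the 1 gene under 0.05 and a median of -0.05. Of all genes, 1.42% were higher and 6.75% lower at that level. The 2 other Slc30 genes with the smallest p were Slc30a5, a Golgi zinc transporter with a log2 fold change of 0.07, and Slc30a9, a mitochondrial zinc exporter with 0.02 (adjusted p of 0.88 and 0.95 from limma). Among the other Slc39 genes these were Slc39a7, which releases zinc from the endoplasmic reticulum, with -0.18, and Slc39a1, a zinc importer of the plasma membrane, with -0.14 (adjusted p of 0.654 and 0.675 from limma).
In level, Slc39a1 led the families at 32.32 to 41.86 FPKM over the 6 livers, and overlapped with Slc39a14 at 27.91 to 36.62 FPKM. Slc39a7 came below both, at 18.08 to 26.30 FPKM. Slc30a9, at 15.23 to 18.68 FPKM, overlapped with Slc39a7 above it and with Slc39a4, at 10.81 to 16.63 FPKM, below it. Of the 8 genes under 1 FPKM, Slc39a5 had the highest mean, and its level in conF1-M livers was above every other of them.

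**Figure D3:**
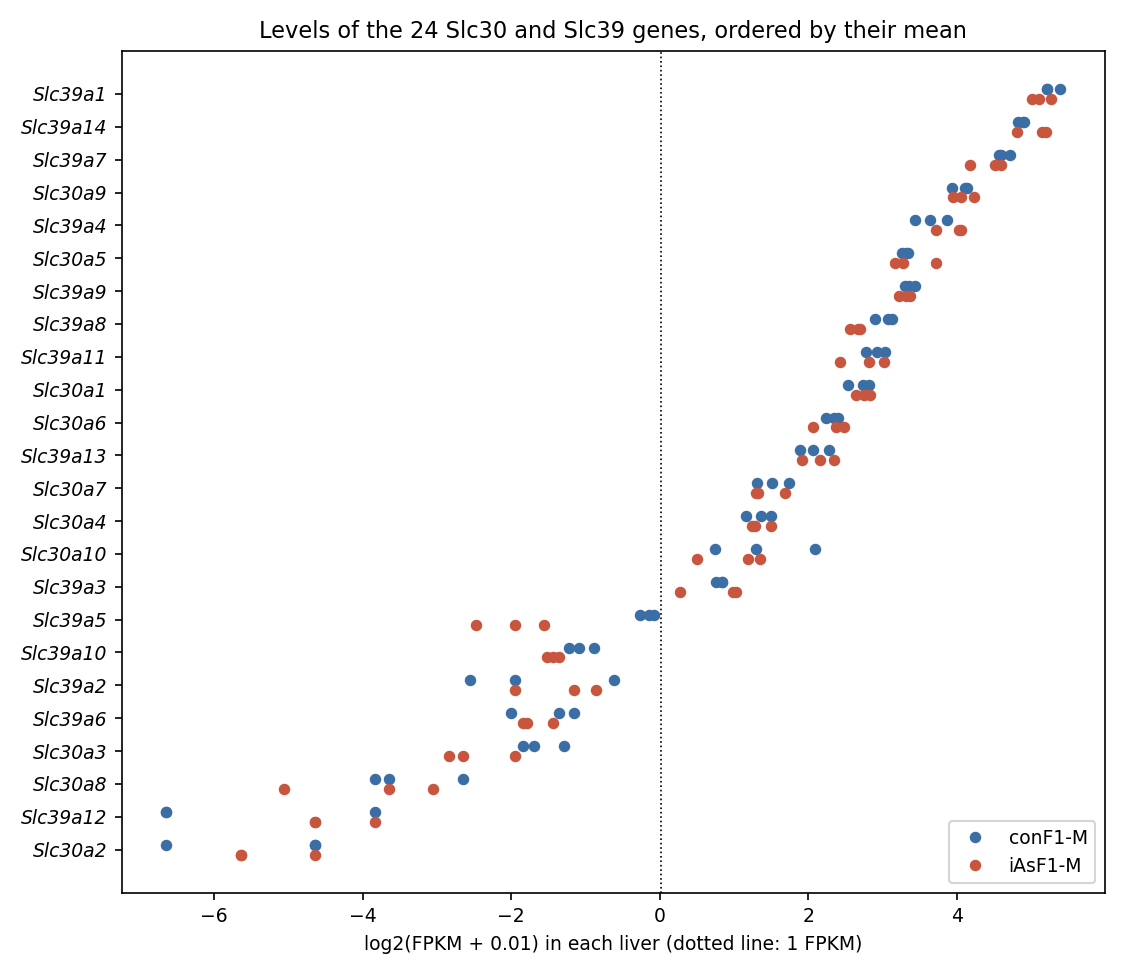
Levels of all 24 Slc30 and Slc39 genes in each liver on the scale log2(FPKM + 0.01), ordered by the mean over 6 livers. Most genes have interleaved points of both groups, while Slc39a8 above the 1 FPKM line and Slc39a5 below it show separated ones, as do Slc39a10 and Slc30a3 at lower levels.

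Manganese handling was read from 10 genes, all tested, of which Slc39a8 and Slc40a1 were lower and none higher at an unadjusted p under 0.05, beside 6.75% and 1.42% of all genes, with a median log2 fold change of -0.11. Slc40a1 encodes ferroportin, the iron exporter that can also carry manganese. It stood at 43.46, 35.93 and 31.54 FPKM in conF1-M and at 26.80, 21.92 and 30.96 FPKM in iAsF1-M livers, without overlap (log2 fold change -0.46, standard error 0.16, adjusted p = 0.584 from limma). Of all genes, 11.8% were separated in that direction. Kupffer cells, the liver's macrophages, also express Slc40a1, and their 8 markers summed to 102 to 119 FPKM in conF1-M and 64.1 to 164 FPKM in iAsF1-M livers. Of these markers 5 had a fold change below 0 and 3 above 0, with a median log2 fold change of -0.19. At an unadjusted p under 0.05 from limma, 1 was lower and none higher. Their part in the level of Slc40a1 was not tested.
Of 12 copper genes 11 were tested and none was higher or lower under 0.05, beside 1.42% and 6.75% of all genes, with a median of -0.08. Slc31a2, which takes part in copper uptake from endosomes, had -0.16, and Commd1, which takes part in copper export, had -0.20 (adjusted p of 0.619 for both from limma).

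Zinc-dependent enzymes of the liver were read as well. Of 16 listed, 15 were measured and 12 tested, 4 were lower and none higher at an unadjusted p under 0.05, beside 6.75% and 1.42% of all genes. The median log2 fold change was -0.23, beside -0.07 for all genes. Alad, the zinc enzyme of heme synthesis that lead inhibits, stood at 136.14, 92.54 and 132.10 FPKM in conF1-M and at 64.71, 64.39 and 91.69 FPKM in iAsF1-M livers (log2 fold change -0.70, standard error 0.19, adjusted p = 0.564 from limma). Pm20d1, an enzyme that joins fatty acids to amino acids, stood at 45.12, 49.67 and 45.34 FPKM and at 26.89, 22.88 and 35.68 FPKM (log2 fold change -0.72, standard error 0.15, adjusted p = 0.461 from limma). Without iAsF1-M 3 it passed, at -0.89 (adjusted p = 0.0191 from limma). Neither Alad nor Pm20d1 had overlapping groups, and 11.8% of all genes were separated with iAsF1-M lower. Pm20d1 was put on this list with an earlier result of these data known.

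Genes whose pattern over the 6 livers was most like the mean of Mt1 and Mt2 were picked by Pearson's r of log2 values, as a description over libraries that hold the group difference. They were C9orf72 (r = 0.979), a gene of vesicle traffic and autophagy, Usp18 (0.972), the interferon-induced protease of ISG15, Ccl5 (0.969), a chemokine, Oasl2 (0.968), an interferon-induced gene, and Gbp3 (0.957), an interferon-induced GTPase. C9orf72 stood at 3.16, 3.07 and 3.25 FPKM in conF1-M and at 5.28, 5.10 and 4.05 FPKM in iAsF1-M livers, ranking the 6 livers exactly as the metallothioneins did. Usp18 stood at 4.97, 3.63 and 4.90 FPKM and at 8.79, 8.26 and 7.37 FPKM. Within groups, after each group's mean was removed, r was 0.877 for C9orf72, 0.830 for Usp18, 0.947 for Ccl5, 0.807 for Oasl2 and 0.755 for Gbp3. All 5 genes were separated between the groups with iAsF1-M higher, with log2 fold changes of 0.22 to 0.74 and adjusted p values of 0.295 to 0.593 from limma, smaller differences than those of Mt1 and Mt2. Without iAsF1-M 3, C9orf72, Usp18, Ccl5 and Gbp3 passed, with adjusted p values of 0.0473, 0.0489, 0.0473 and 0.0483 from limma, and Oasl2 did not. The 5 genes were picked for their likeness to Mt1 and Mt2 over these same livers. Their separation, their r within groups, their order of livers and the calls without iAsF1-M 3 follow in part from that choice.
Among the other tested genes of the 10, r to the metallothioneins ran from 0.726 for Slc39a14 down to -0.927 for Slc39a8. Within groups these were 0.599 and -0.561.

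**Figure D4:**
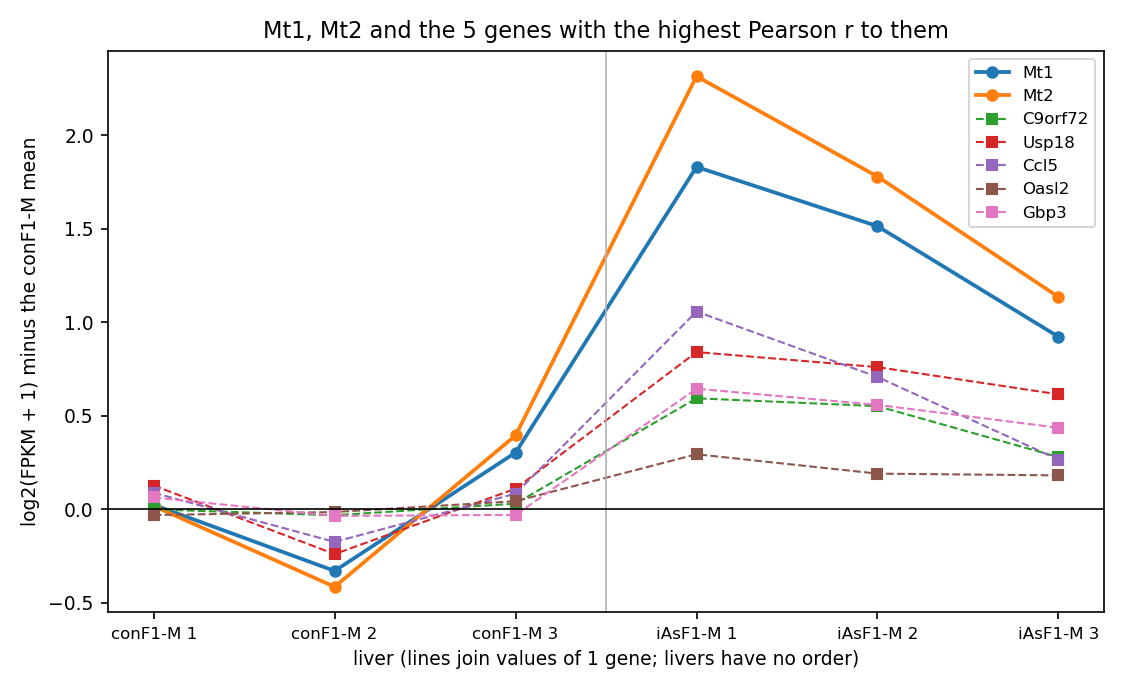
Mt1, Mt2 and the 5 genes with the highest Pearson r to them, as log2(FPKM + 1) minus the mean of the 3 conF1-M livers. Lines join the values of 1 gene, and livers have no order. Every gene is highest in iAsF1-M 1 and lowest of the iAsF1-M livers in iAsF1-M 3, and Mt1 and Mt2 differ most.

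The genes beside the metallothionein pair on chromosome 8 overlapped between the groups. On one side the nearest measured genes were Bbs2, a ciliary gene 73.7 kb away, Ogfod1 and Nudt21, and on the other Nup93, a nuclear pore gene 34.2 kb away, Slc12a3 and Herpud1. The log2 fold changes were 0.09 for Ogfod1, 0.03 for Nudt21, -0.15 for Nup93 and 0.17 for Herpud1 (adjusted p of 0.774 to 0.926 from limma), with 95% intervals as wide as -0.34 to 0.67 for Herpud1. Bbs2 and Slc12a3 were under the minimum and not tested.

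Lists of genes that answer to other inducers of metallothionein were read beside Mt1 and Mt2. Of 12 glucocorticoid-induced genes, all tested, 1 was higher and none lower at an unadjusted p under 0.05, beside 1.42% and 6.75% of all genes, with a median log2 fold change of 0.38. In 10 of the 12 genes iAsF1-M 2 was the highest of the 6 livers, and the exceptions were Tsc22d3, highest in iAsF1-M 3, and Lcn2, highest in iAsF1-M 1. Zbtb16, a transcription factor strongly induced by glucocorticoids, stood at 0.25, 1.26 and 1.90 FPKM in conF1-M and at 1.38, 10.04 and 3.44 FPKM in iAsF1-M livers (log2 fold change 1.28, standard error 0.54, adjusted p = 0.609 from limma). Dusp1, a phosphatase of MAP kinases, stood at 3.07, 5.62 and 4.68 FPKM and at 4.62, 24.34 and 6.62 FPKM (log2 fold change 0.94, adjusted p = 0.619 from limma). In both genes iAsF1-M 2 was highest. Mt1 and Mt2 stood at 362.68 and 145.07 FPKM in iAsF1-M 1 and at 290.92 and 99.73 FPKM in iAsF1-M 2.
Of 20 acute phase and IL-6 genes, all tested, 2 were higher and none lower at that level, again beside 1.42% and 6.75% of all genes, with a median of 0.13. Crp, C-reactive protein, stood at 164.02, 158.20 and 142.39 FPKM in conF1-M and at 196.71, 191.79 and 178.73 FPKM in iAsF1-M livers (log2 fold change 0.29, standard error 0.10, adjusted p = 0.586 from limma). Serpina3n, a protease inhibitor, stood at 195.39, 246.98 and 231.80 FPKM and at 262.35, 287.94 and 285.63 FPKM (log2 fold change 0.31, adjusted p = 0.592 from limma). Both were separated between groups, by far less than the metallothioneins. Of all genes, 2.37% were separated with iAsF1-M higher. In 17 of the 20 genes iAsF1-M 1 was the highest of the 6 livers. The exceptions were Hamp, highest in conF1-M 3 at 3149.35 FPKM, Serpina3n, highest in iAsF1-M 2, and Saa4. How often each liver was highest over all genes was not counted, for this list or the glucocorticoid list. Of the serum amyloid genes, Saa1 was at 239.28 FPKM there and at 18.02 to 40.30 FPKM in the other 5 livers, and Saa2 at 97.42 FPKM there and at 6.49 to 15.99 FPKM in the others. Saa4 was at 99.07 FPKM in iAsF1-M 1, within its conF1-M range, and highest in iAsF1-M 3, at 126.79 FPKM.
In iAsF1-M 3, the liver with the lowest metallothionein level of its group, Zbtb16, Dusp1 and Tsc22d3 of the glucocorticoid list were above their conF1-M maximum, at 3.44, 6.62 and 39.13 FPKM. So were 5 of the 20 acute phase and IL-6 genes in that liver. The share over all genes was not counted. The part of either response in the metallothionein levels was not tested. Hamp, Saa1, Saa2, Saa4, Tsc22d3 and Lcn2 were singled out after their values were seen.

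**Figure D5:**
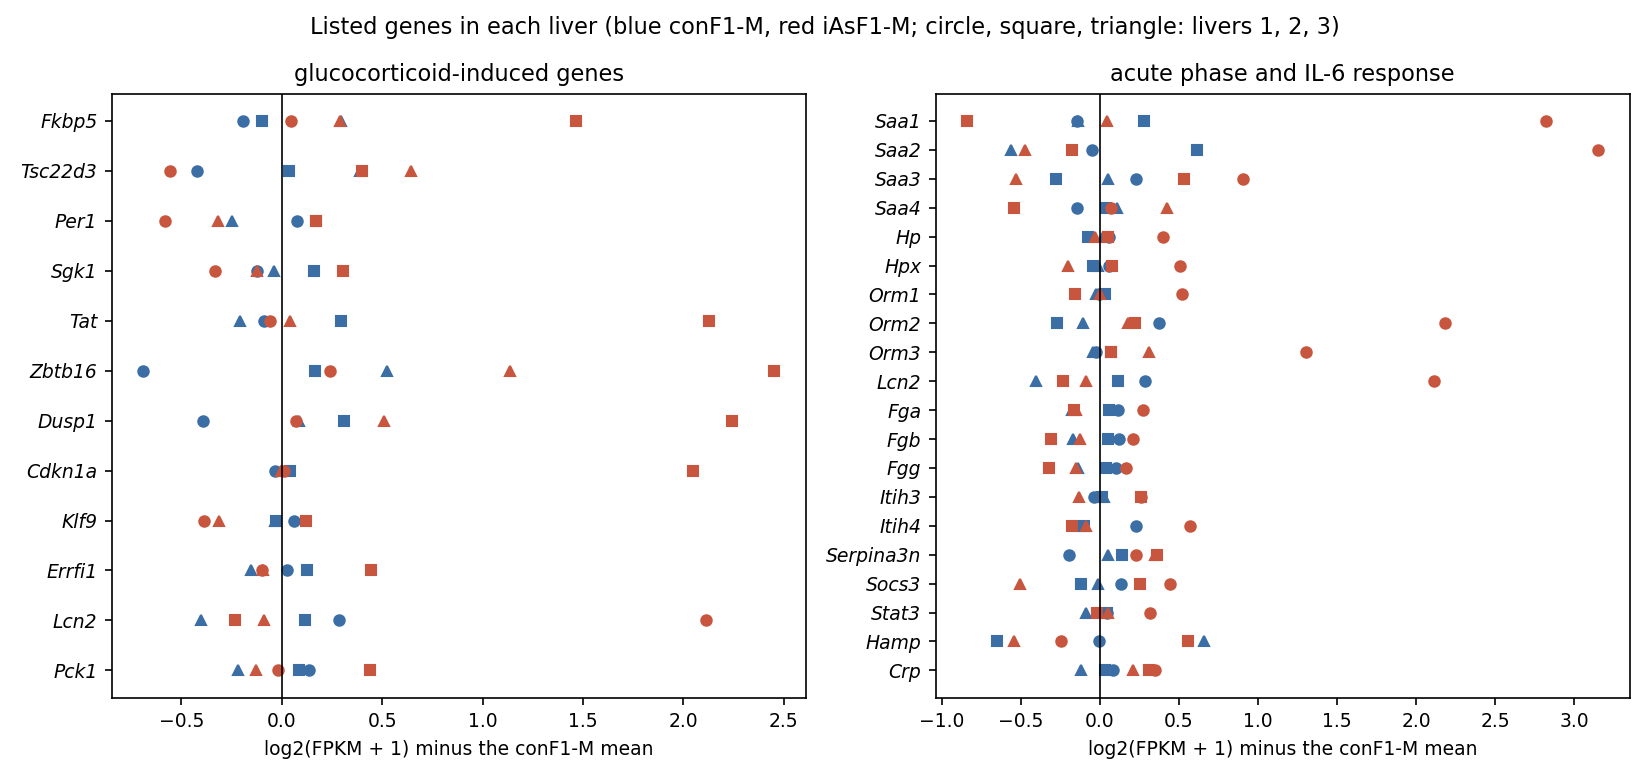
Glucocorticoid-induced genes (left) and acute phase and IL-6 response genes (right) in each liver, as log2(FPKM + 1) minus the mean of the 3 conF1-M livers. The squares of iAsF1-M 2 stand out in several genes on the left and the circles of iAsF1-M 1 in several on the right.

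The NRF2 targets, a read-out of oxidative and electrophile stress that arsenite itself provokes in exposed cells, were read in the same way. Of 14 listed, 12 were tested, 2 were lower and none higher at an unadjusted p under 0.05, beside 6.75% and 1.42% of all genes, and the median log2 fold change was -0.25. Gstm1, a glutathione S-transferase, stood at 1417.27, 1046.01 and 1149.82 FPKM in conF1-M and at 826.46, 870.15 and 1020.44 FPKM in iAsF1-M livers (log2 fold change -0.40, standard error 0.15, adjusted p = 0.593 from limma). Gsta2, a second transferase, had -0.57 with overlap (adjusted p = 0.609 from limma). Both belong to families of close paralogs that may share fragments.
Of 12 genes that follow feeding, 11 were tested, and 2 were higher and 1 lower at that level, beside the same shares of 1.42% and 6.75% of all genes, with a median of 0.29. G6pc and Igfbp1, genes that insulin represses, had log2 fold changes of 1.13 and 2.44 (adjusted p of 0.283 and 0.569 from limma). Both passed without iAsF1-M 3, at 1.26 and 3.19 (adjusted p of 0.0292 and 0.0426 from limma). Igfbp1 was highest in iAsF1-M 2, at 240.63 FPKM, beside 72.54 and 27.26 FPKM in iAsF1-M 1 and iAsF1-M 3.

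Markers of other cells in the liver were read for their whole lists. Stellate cell markers, 8 of 8 measured, summed to 147 to 198 FPKM in conF1-M and 129 to 150 FPKM in iAsF1-M livers. All 6 of them that were tested had a fold change below 0, as did 6744 of the 9695 genes. Their median log2 fold change was -0.24, beside -0.07 for all genes. Cholangiocyte markers, 6 of 6, summed to 8.37 to 14.0 FPKM and 9.12 to 18.5 FPKM, and red blood cell markers, 6 of 6, to 890 to 2514 FPKM and 940 to 1584 FPKM. Kidney markers, 4 of 8, stayed at 0.00 to 0.09 FPKM in conF1-M and 0.03 to 0.59 FPKM in iAsF1-M livers. Each of these ranges overlapped between the groups, unlike those of the endothelial markers and of Mt1 and Mt2.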

How the data were processed

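The authors filtered paired-end reads, aligned them to GRCm38 with HISAT2 and deposited 1 FPKM value per gene and liver, rounded to 2 decimals. The program and annotation behind the FPKM are not given in the sources used here. Of 16743 identifiers, 16 stood on 2 lines and were left out, and 16706 of the rest were named through GENCODE M21, where Tf is Trf. Because FPKM are not counts, and steps between low values were not sharp enough to recover counts (52.1% to 63.0% within 0.15 of a whole number, 30% by chance), log2(FPKM + 1) was fitted with limma 3.58.1 in R 4.3.3 (eBayes with a trend) for 9695 genes whose mean reached 1 FPKM. Groups came from the labels, no covariate was used, tests were two-sided and p was adjusted by Benjamini and Hochberg over all genes tested, with a threshold of 0.05. The p values measure the spread between these mice only. The fit was tested on simulated data. Motifs were searched in Python 3.11.15.

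The genes, lists and tests were chosen with earlier results of these data known. Genes named were the 10 themselves, the 2 with the smallest p of each other family or list, the 5 most like Mt1 and Mt2 and the 3 nearest neighbours on each side. Alternatives covered variance models, pseudocounts, filters, scalings, library weights, a replicate block, an adjusted p under 0.1 and leaving out each liver. Mt3 and Mt4 were not analysed here.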

Additional observations from a re-analysis of the deposited data

How the results depend on the processing

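The direction of Mt1 and Mt2 was the same under every alternative run, with log2 fold changes of 1.22 to 1.67 and 1.46 to 2.05 when 1 liver was left out. Both passed only without iAsF1-M 3 (adjusted p = 0.0158 and 0.0177 from limma). Pm20d1, G6pc, Igfbp1, C9orf72, Usp18, Ccl5 and Gbp3 passed without that liver too, with adjusted p from limma of 0.0191 to 0.0489. The number of the 10 genes past the threshold was 0 to 2 when 1 liver was left out, and the number of all genes past it was 3 to 73, with the lowest number when conF1-M 1 or conF1-M 2 was left out, 13 when conF1-M 3 was and the highest when iAsF1-M 3 was. With no filter on low values 3 genes passed. With a minimum mean of 5 FPKM, which leaves 6 of the 10 genes, their median log2 fold change was 0.22. For all genes the split at an unadjusted p under 0.05, 138 higher and 654 lower, became 333 and 350 after quantile normalization, and TMM-like scaling gave 307 and 335.

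Fold changes near 0 changed sign. With library weights, Slc30a9 was at -0.019 and Nudt21 at -0.021. With 1 liver left out, Slc30a9 ran from -0.047 to 0.081, Nudt21 from -0.031 to 0.092, Slc30a1 from -0.032 to 0.093, Slc30a5 from -0.084 to 0.17, Herpud1 from -0.062 to 0.39 and Slc30a7 from -0.15 to 0.021.

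Livers that share a replicate number had correlations of 0.167, -0.10 and -0.02 in their deviations from the group means. So few values cannot settle whether the numbers pair the mice. With a replicate block 5 genes and none of the 10 passed, and the adjusted p from limma was 0.352 for Mt1 and 0.328 for Mt2. For Slc39a5 at a minimum mean of 0.1 FPKM it was 0.293 with the block, 0.253 under quantile normalization and 0.135 under TMM-like scaling. With 3 livers per group and estimated depths only, a fragment count behind each value is approximate.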

Other observations

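Slc30a3, a zinc transporter of vesicles whose level was too low for the test, stood at 0.30, 0.40 and 0.27 FPKM in conF1-M and at 0.15, 0.25 and 0.13 FPKM in iAsF1-M livers. It was singled out after its values were seen. Together with Slc39a5 and Slc39a10 it was one of 3 transporter genes under 1 FPKM whose groups did not overlap, each with iAsF1-M lower, beside the 11.4% of genes over a minimum mean of 0.1 FPKM that were separated in that direction.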
